A study of Homo sapiens with 3 samples.

Results

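The 10 genes described here encode cell surface adhesion molecules whose extracellular part carries immunoglobulin domains: L1CAM, MCAM, ALCAM, BCAM, ICAM1, CADM1, NRCAM, NCAM1, VCAM1 and CD47. They were followed in SKOV-3 cells, an established ovarian cancer line, through every probe set of the array whose annotation gives one of these symbols and no other, 35 of 54675 probe sets and 10 of 19775 genes. The cells carried a stable lentiviral insert, selected with puromycin, that encoded G9a shRNA1, G9a shRNA2 or a control hairpin directed at luciferase (Luc shRNA). Whether the lines are pools or clones is not given in the sources used here. A single Affymetrix array was analysed per condition, 3 in all, so no replicate error could be computed and no test was made. G9a is a methyltransferase for lysine 9 of histone H3, a mark linked to gene silencing, and the design asked which genes differ once it is depleted.

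Adhesion molecules of the immunoglobulin type bind the same molecule on a neighbouring cell, a different immunoglobulin molecule, an integrin, or a protein of the extracellular matrix. Their short tails connect to ankyrin, ezrin or PDZ proteins, and proteases can shed the extracellular part. In carcinoma, L1CAM, MCAM and ALCAM are known for their part in cell migration and spread, ICAM1 and VCAM1 for their induction by inflammatory signals, CADM1 for its frequent loss, and CD47 for the signal that holds back macrophages.

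MCAM had the largest decrease of the 10 genes at the brightest probe set annotated to a single gene. A brighter probe set, annotated to MCAM together with a microRNA gene, was not lower with both shRNAs. L1CAM and ALCAM were lower with both G9a shRNAs, and ICAM1 was higher from a control signal near the background. Values are MAS5 signals, the linear probe set intensity of Affymetrix software, and ratios are log2 of a G9a shRNA signal over the Luc shRNA signal. Where 3 signals follow each other without array names, the order is Luc shRNA, G9a shRNA1, G9a shRNA2, and paired ratios have G9a shRNA1 first. Probe sets were kept if any of the 3 signals reached 12, the median over every value, and a gene was read at its brightest probe set. Of the 10 genes, 9 were kept, and VCAM1 was not. MCAM was more than 2-fold lower with both shRNAs, 1 of the 9 beside 1.66% of 13192 kept genes. MCAM and L1CAM were more than 2-fold lower with at least 1 shRNA and lower with the other, 2 of 9 beside 5.59% of kept genes. None was more than 2-fold higher with both (2.57% of kept genes) or with at least 1 and higher with the other (5.26%), although 1 kept ICAM1 probe set that was not its brightest was past 2-fold higher with both. Without regard to size, 6 of the 9 were lower with both shRNAs, where 30.8% of all kept genes were, and 3 were higher with both, where 44.0% were. Over all 10 genes the median log2 ratio was -0.27 with G9a shRNA1 and -0.22 with G9a shRNA2, against 0.02 and 0.09 over all genes. When every probe set of a gene was averaged, the medians over the 10 were -0.13 and 0.26, so the direction for G9a shRNA2 turned. Both ratios of a gene share the single Luc shRNA array, so a direction common to both shRNAs is not 2 independent readings.

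The arrays themselves set the frame for these values. EHMT2, which encodes G9a, read 182 on the Luc shRNA array, 29.7 on G9a shRNA1 and 79.2 on G9a shRNA2 at its brightest probe set, log2 ratios of -2.62 and -1.20. Its other kept probe set read 27.6, 23.9 and 16.4. The 2% trimmed mean of all signals was 106 on the Luc shRNA array, 105 on G9a shRNA1 and 115 on G9a shRNA2. The 3′ to 5′ ratio of the β-actin control probe sets, a sign of RNA integrity, was 3.68 on the Luc shRNA array, 1.83 on G9a shRNA1 and 1.47 on G9a shRNA2, whereas for GAPDH it lay between 1.12 and 1.15. The part of this difference in the ratios below was not tested. Of 10 markers of epithelium and ovarian cancer cells, 9 were kept and MUC16 read at most 1.2, while of the marker lists for leukocytes (5 with a probe set), endothelium (6), neurons and glia (6) and mesothelium (5), 1, 1, 3 and 4 genes were kept. The summed marker signals with G9a shRNA1, G9a shRNA2 and Luc shRNA were 8722, 10014 and 7324 for the epithelial list, 26.3, 29.6 and 20.2 for leukocytes, 39.8, 51.4 and 28.3 for endothelium, 346, 572 and 428 for neurons and glia, and 109, 121 and 123 for mesothelium. MBP made up most of the neuron and glia sum, at 384 on the Luc shRNA array, 313 on G9a shRNA1 and 533 on G9a shRNA2. The other kept genes of that list, SNAP25 and SYN1, read at most 18 and 17.2. In the epithelial list the largest increases were those of the keratin gene KRT19, from a control signal of 13.4, and the epithelial adhesion gene EPCAM. Their log2 ratios were 1.90 and 1.84, and 1.06 and 0.98. The median over the list was only 0.26 with G9a shRNA1 and 0.59 with G9a shRNA2. Of its 9 kept genes, 7 were higher with both shRNAs and 1 lower, where 44.0% and 30.8% of all kept genes were. The kept leukocyte marker, ITGAM, read 11, 13.4 and 13.7, and the kept endothelial marker, PECAM1, read 15.4, 29.9 and 28.5, while PTPRC and CDH5 were at most 4.89 and 1.48. The part of other cell types was not tested, and fewer cells with a transcript and less RNA per cell cannot be told apart in such bulk RNA.

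**Figure D1:**
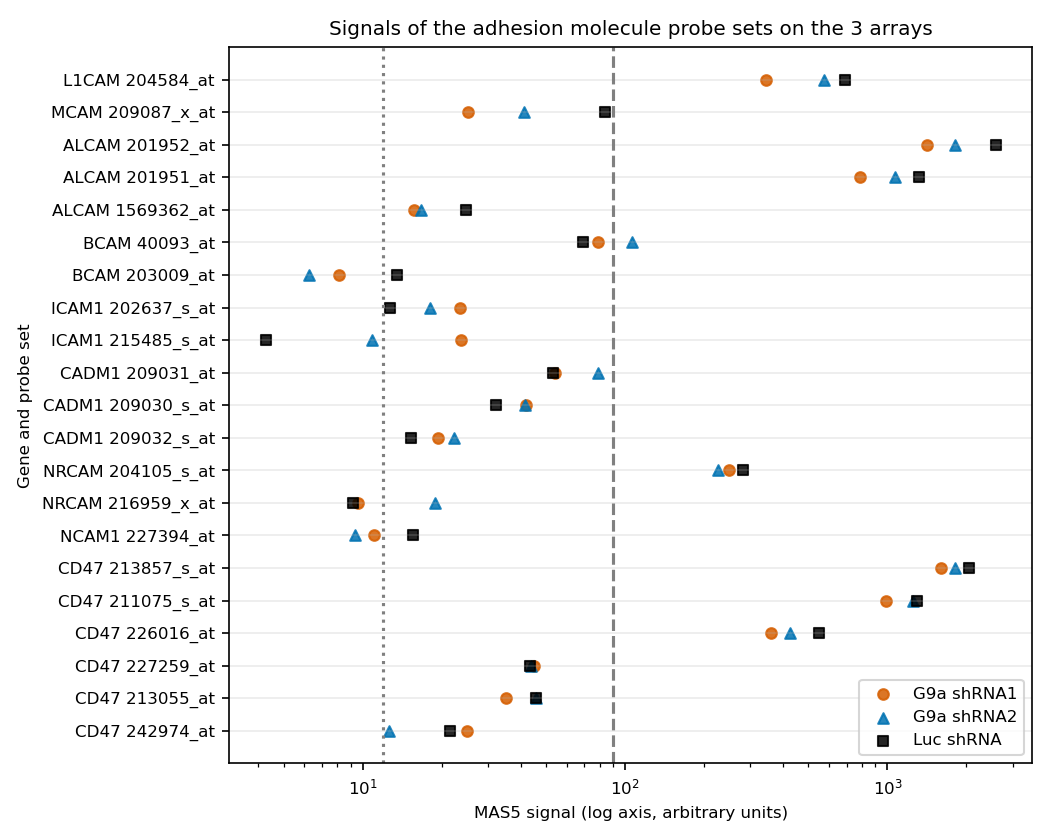
MAS5 signal (x axis, log scale) of the 21 kept probe sets of the adhesion molecules on the G9a shRNA1 (circles), G9a shRNA2 (triangles) and Luc shRNA (squares) arrays, 1 array per condition. The dotted line is the median of all values (12) and the dashed line their 75th percentile (89.7); the Luc shRNA square lies to the right of both other symbols for MCAM, L1CAM and ALCAM and to the left for ICAM1.

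MCAM, ALCAM and BCAM form a group of structurally related receptors. MCAM (CD146), first described in melanoma and also present on endothelium, binds laminins and other partners. At its kept probe set MCAM read 83.6 on the Luc shRNA array, 25.3 on G9a shRNA1 and 41.2 on G9a shRNA2. The control was the highest and G9a shRNA1 the lowest of the 3 arrays. These signals correspond to decreases of 3.3-fold and 2.03-fold, log2 ratios of -1.72 and -1.02. Both exceeded 0.39, the SD of the log2 ratio between the G9a shRNA arrays over the nearest probe sets in signal, 500 on each side. This SD is used below as the local spread and includes real differences between the shRNAs. It leaves out the Luc shRNA array, so it does not measure the error of a ratio to that array and serves only as a scale. The _x_at suffix of this probe set marks probes that can also bind other transcripts. The 2-fold call with both shRNAs ended with a filter at the 75th percentile of all values (89.7), above the highest of these 3 signals. It also ended with probe sets of this suffix left out and with the mean of both MCAM probe sets. That mean was -1.14 with G9a shRNA1, still past 2-fold, and -0.79 with G9a shRNA2. The other MCAM probe set stayed under the filter, at 10.3, 6.96 and 6.94. Another 4 probe sets are annotated to MCAM together with MIR6756, a microRNA gene, and were not counted as MCAM. Of these, 3 were lower with both shRNAs, with log2 ratios of -1.76 and -0.73, -1.72 and -0.81, and -1.11 and -0.60. The brightest of the 4 was not, at 439 on the Luc shRNA array, 569 on G9a shRNA1 and 418 on G9a shRNA2, log2 ratios of 0.37 and -0.07. MCAM is among the genes that the study picked from these arrays, as is L1CAM, so their direction on the arrays is not independent evidence. The study also measured both genes by quantitative RT-PCR and reported them lower after G9a depletion. Those measurements are not part of the values used here.

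ALCAM (CD166) binds itself on neighbouring cells and CD6 on T cells. Its brightest probe set read 2580 on the Luc shRNA array, 1415 on G9a shRNA1 and 1804 on G9a shRNA2. The next read 1321, 789 and 1069, and the third, near the background, read 24.8, 15.7 and 16.7. In all 3 the control was the highest and G9a shRNA1 the lowest array. The log2 ratios were -0.87 and -0.52, then -0.74 and -0.31, then -0.67 and -0.57, so that ALCAM was lower at every probe set yet past 2-fold at none. The differences at both bright probe sets were larger than their local spreads of 0.17 and 0.18.

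BCAM, the Lutheran blood group antigen and a receptor for laminin α5, gave no common direction. One probe set read 68.9 on the Luc shRNA array, 78.6 on G9a shRNA1 and 106 on G9a shRNA2, log2 ratios of 0.19 and 0.63 beside a local spread of 0.32. The other, near the background, read 13.5, 8.12 and 6.24, or -0.74 and -1.12 beside a local spread of 0.94. With values under 12 raised to 12, this second pair became -0.18 and -0.18. The mean of both probe sets was -0.27 with G9a shRNA1 and -0.24 with G9a shRNA2, so the direction of BCAM turns with the probe set that is read.

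The promoters of MCAM, L1CAM and ALCAM are shown because these members were lower with both shRNAs at every kept probe set annotated to them alone. NCAM1, the other such member, had no entry. The sequences are from RefSeq (GRCh38.p14), the 250 bases before the start, and 8 of the 10 genes had an entry. Capitals mark GC boxes (GGGCGG, on either strand, overlaps included) and, in MCAM, a cAMP response element (TGACGTCA). MCAM lies on the minus strand at chr11:119317131-119317380, L1CAM, at the outer of its 2 listed starts, on the minus strand at chrX:153876015-153876264, and ALCAM on the plus strand at chr3:105366659-105366908.
MCAM: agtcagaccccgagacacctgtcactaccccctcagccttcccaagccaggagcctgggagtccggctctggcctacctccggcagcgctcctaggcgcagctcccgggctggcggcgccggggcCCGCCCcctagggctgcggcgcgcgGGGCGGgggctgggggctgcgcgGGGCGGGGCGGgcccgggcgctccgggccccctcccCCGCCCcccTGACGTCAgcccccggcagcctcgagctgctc
L1CAM: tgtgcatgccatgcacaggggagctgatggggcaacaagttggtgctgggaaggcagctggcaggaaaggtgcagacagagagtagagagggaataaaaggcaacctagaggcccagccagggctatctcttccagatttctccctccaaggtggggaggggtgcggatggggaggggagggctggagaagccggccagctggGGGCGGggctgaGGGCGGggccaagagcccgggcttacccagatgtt
ALCAM: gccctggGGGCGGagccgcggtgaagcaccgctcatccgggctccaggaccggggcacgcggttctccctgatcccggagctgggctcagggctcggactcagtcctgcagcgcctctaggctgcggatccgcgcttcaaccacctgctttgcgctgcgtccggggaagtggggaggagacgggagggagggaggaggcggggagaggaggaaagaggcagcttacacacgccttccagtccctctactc
MCAM held 5 GC boxes, L1CAM 2 and ALCAM 1, in windows with 26, 5 and 20 CpG dinucleotides. A GC box was present in 42.6% of 35114 such windows and a cAMP response element in 1.65%, and the median window held 11 CpG. The TATA box (TATAAA), the AP-1 site (TGANTCA) and the E-box (CACGTG), searched in the same way, occurred in 10.7%, 6.57% and 6.35% of windows and in none of these 3. CD47, whose signals differed less, held 6 GC boxes and 39 CpG. A match is a description of the letters and not evidence of binding.

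L1CAM and NRCAM belong to the L1 family, neural adhesion molecules with immunoglobulin and fibronectin domains and a tail that binds ankyrin. L1CAM read 688 on the Luc shRNA array, 343 on G9a shRNA1 and 574 on G9a shRNA2 at its kept probe set. The control was again the highest array and G9a shRNA1 the lowest. The decreases were 2.01-fold and 1.2-fold, log2 ratios of -1.0 and -0.26, beside a local spread of 0.21. The first lies so close to the threshold that L1CAM was under 2-fold when the arrays were scaled to one trimmed mean (-0.99) or quantile normalized (-0.97). The second L1CAM probe set read between 1.31 and 2.38 and carries no ratio. NRCAM read 282 on the Luc shRNA array, 250 on G9a shRNA1 and 226 on G9a shRNA2, log2 ratios of -0.17 and -0.32 beside a local spread of 0.24. Its second probe set read 9.2, 9.61 and 18.9, log2 ratios of 0.06 and 1.04, so that the control was the lowest array there. The mean of both was -0.05 and 0.36, so the direction of NRCAM with G9a shRNA2 turns with the probe set that is read.

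NCAM1 (CD56), an adhesion molecule of neurons and natural killer cells that binds itself, is measured by 7 probe sets, of which 1 was kept. That probe set read 15.6 on the Luc shRNA array, 11.1 on G9a shRNA1 and 9.35 on G9a shRNA2, log2 ratios of -0.49 and -0.74. The local spread was 0.73, above the first and just under the size of the other, and only the control array was above the median of all values. With values under 12 raised to 12, both ratios were -0.39. The other 6 probe sets read at most 7.55.

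**Figure D2:**
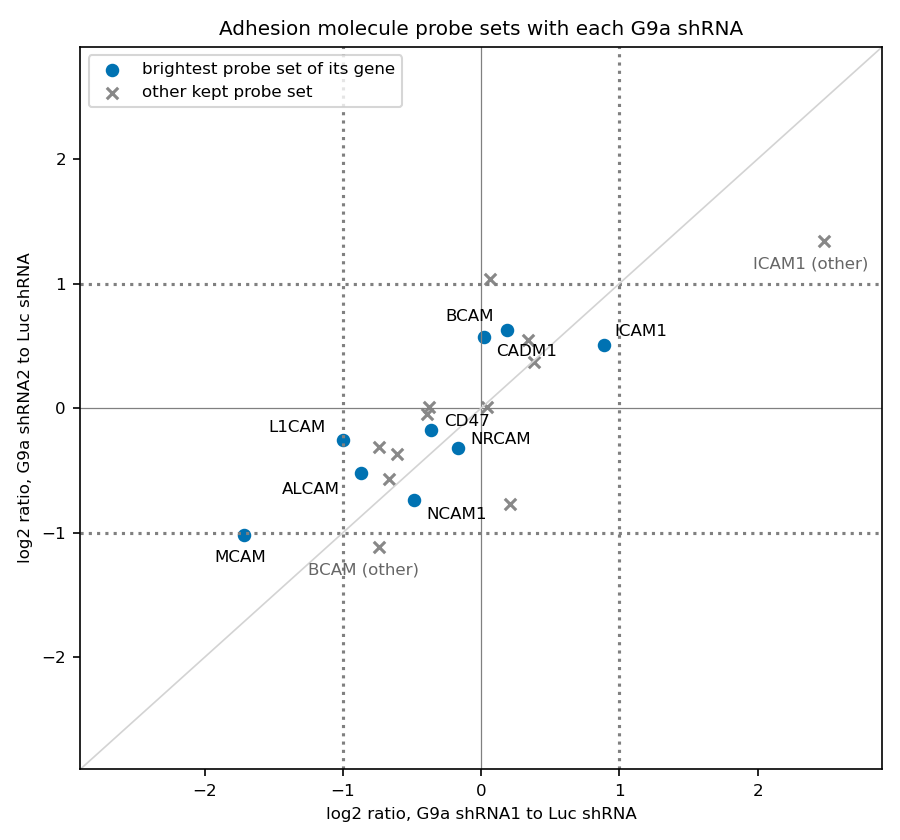
Log2 ratio to the Luc shRNA array for G9a shRNA1 (x axis) against G9a shRNA2 (y axis), at the kept probe sets of the adhesion molecules, 1 point per probe set; dots are the brightest probe set of each gene and crosses the others. Dotted lines mark 2-fold and the diagonal equal ratios; MCAM lies past 2-fold with both, L1CAM at the line with G9a shRNA1, and the 2 BCAM probe sets lie on opposite sides of 0.

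ICAM1 and VCAM1 are ligands for the integrins of leukocytes. ICAM1 was higher with both G9a shRNAs at its 2 kept probe sets, which lay near the background. The brightest read 12.7 on the Luc shRNA array, 23.5 on G9a shRNA1 and 18.1 on G9a shRNA2, log2 ratios of 0.89 and 0.51 beside a local spread of 0.61. The second read 4.28, 23.8 and 10.9, or 2.48 and 1.34, and the third, under the filter, read 1.19, 9.01 and 11.9 and is given no direction. The control array was the lowest at both kept probe sets, but the sizes rest on control signals near or under the median of all values. With values under 12 raised to 12, the second pair became 0.99 and 0.00. The call of ICAM1 depends on the probe set read: the mean of its kept probe sets gave 1.68 and 0.93, past 2-fold with G9a shRNA1 alone, and the mean of all 3 gave 2.10 and 1.73, past 2-fold with both. VCAM1 read 0.308 on the Luc shRNA array, 0.352 on G9a shRNA1 and 1.73 on G9a shRNA2 at its only probe set. All of these were under the filter, and detection calls were not used.

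CADM1 (also named nectin-like 2 or SynCAM 1) binds itself and nectin-type partners between epithelial cells. Its brightest probe set read 53.1 on the Luc shRNA array, 54 on G9a shRNA1 and 79 on G9a shRNA2, log2 ratios of 0.02 and 0.57 beside a local spread of 0.37. The other 2 kept probe sets gave 0.38 and 0.37, and 0.34 and 0.55. The control array was the lowest at all 3 kept probe sets, but none was past 2-fold, and the value of 0.02 became -0.05 when each array was centred on its median. A larger signal with G9a shRNA2 than with G9a shRNA1 was seen at the brightest probe set and not at the second, where both G9a shRNA arrays read 41.9 and 41.7.

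CD47, which carries a single immunoglobulin domain, spans the membrane several times and binds SIRPα and thrombospondin, had the most kept probe sets, 6 of 7. The 3 bright ones were lower with both shRNAs. They read 2052, 1299 and 550 on the Luc shRNA array, 1594, 990 and 361 on G9a shRNA1, and 1814, 1252 and 427 on G9a shRNA2. The log2 ratios with G9a shRNA1 were -0.36, -0.39 and -0.61, each beyond the local spreads of 0.17, 0.19 and 0.21. With G9a shRNA2 they were -0.18, -0.05 and -0.37. The dimmer probe sets went other ways, with ratios of 0.04 and 0.01, -0.38 and 0.01, and 0.21 and -0.77. None of the 6 was past 2-fold.

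Both shRNAs can be compared with each other without the control array. Among the 8 probe sets of these genes whose highest signal was past the 75th percentile of all values (89.7), the signal was higher with G9a shRNA2 than with G9a shRNA1 by more than the local spread in 7, where 33.0% of all such probe sets were. The median log2 ratio of G9a shRNA2 to G9a shRNA1 over all of those probe sets was 0.13, a shift that was not removed. The ratio was 0.74 for L1CAM, 0.44 and 0.35 for ALCAM, and 0.70 for MCAM, which lay just under the 75th percentile. The 8 probe sets come from 5 genes and are not independent. Read by gene, L1CAM, ALCAM and CD47, 3 of the 5 genes past the 75th percentile, had the order Luc shRNA, then G9a shRNA2, then G9a shRNA1, where 23.0% of 8348 such genes had it. EHMT2 had the same order at its brightest probe set, and the reverse order of the shRNAs at its other kept one. Of those 5 genes, L1CAM alone was more than 2-fold lower with at least 1 shRNA and lower with the other, beside 2.01% of such genes.

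**Figure D3:**
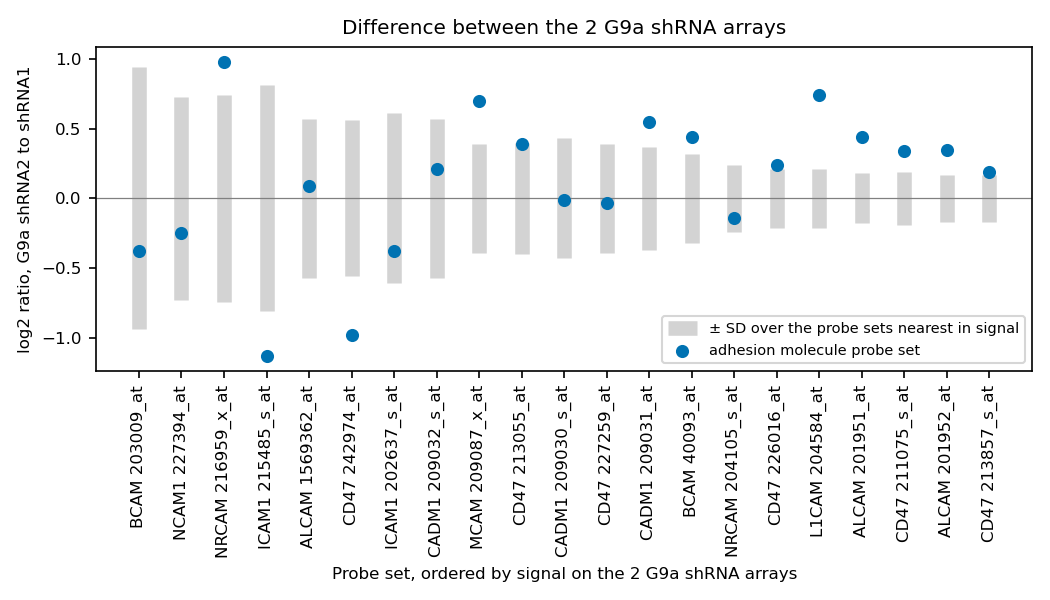
Log2 ratio of the G9a shRNA2 array to the G9a shRNA1 array (y axis) for the 21 kept probe sets of the adhesion molecules, ordered by signal. Grey bars, centred on 0, are ± 1 SD of this ratio over the probe sets nearest in signal, 500 on each side. Of the points, 10 lie above their bar, L1CAM at 0.74 among them, and 2 lie below. Among all kept probe sets 25.1% lay above by this measure, and their median ratio was 0.10.

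The genes whose pair of ratios lay nearest to those of L1CAM, among 8348 genes past the 75th percentile, were ZNF580 (-0.99 and -0.27, at a distance of 0.016 on the log2 scale) and RAB11FIP4 (-1.04 and -0.26, at 0.034). For MCAM they were TMEM47 (-1.75 and -1.0, at 0.033) and SC5D (-1.77 and -1.02, at 0.046). Likeness here rests on 3 arrays.

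Other genes of the same system were read from lists. Of 40 other immunoglobulin-type adhesion molecules, 38 had a probe set and 18 were kept. None of the 18 was more than 2-fold lower or higher with both shRNAs, beside 1.66% and 2.57% of all kept genes. Among them, 6 were lower with both (33.3%) and 10 higher (55.6%), where 30.8% and 44.0% of all kept genes were. The median log2 ratio over the 38 was 0.19 with G9a shRNA1 and -0.14 with G9a shRNA2. ROBO1, the receptor for the guidance protein SLIT, had the largest decrease, from 543 on the Luc shRNA array to 180 on G9a shRNA1 and 275 on G9a shRNA2 (-1.59 and -0.98). CLMP, a junction molecule related to CXADR, read 1117, 596 and 809 (-0.91 and -0.47). CEACAM5 and PECAM1 read higher from control signals near the background, with 0.65 and 1.25, and 0.95 and 0.89.

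Of 24 partners of the 10 molecules, 18 were kept, and 1 was more than 2-fold lower with both, beside 1.66% of all kept genes. This was NRP1, a semaphorin co-receptor that associates with L1CAM, at 292 on the Luc shRNA array, 67.8 on G9a shRNA1 and 143 on G9a shRNA2 (-2.11 and -1.03). None was more than 2-fold higher. Another 3 were past 2-fold lower with 1 shRNA and lower with the other. With NRP1 this made 4 of 18 with at least 1 shRNA, beside 5.59% of all kept genes. SIRPA, the receptor for CD47, read 55.9, 33.1 and 25.5 (-0.75 and -1.13). LAMA4, a laminin chain bound by MCAM, read 17.7, 5.04 and 10.1 (-1.81 and -0.81). ANGPTL4, a secreted protein of lipid metabolism, read 12.7, 10.1 and 5.44 (-0.33 and -1.22). For LAMA4 and ANGPTL4 both G9a shRNA signals were under 12, so their 2-fold calls rest on signals near the background. The integrin α5 gene ITGA5 was higher, at 0.62 and 0.77. The median over the 24 was -0.27 with G9a shRNA1 and -0.10 with G9a shRNA2.

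Proteases that shed these molecules, with their inhibitors, differed little. Of 23 listed, 22 had a probe set, 18 were kept and none was past 2-fold with either shRNA in a common direction. Of all kept genes, 5.59% were so on the lower side and 5.26% on the higher. The sheddase gene ADAM10 read 1108 on the Luc shRNA array, 1007 on G9a shRNA1 and 1118 on G9a shRNA2. ADAM15 was higher at 0.47 and 0.58, and the γ-secretase genes PSEN2 and NCSTN at 0.52 and 0.56 and at 0.28 and 0.78, while BACE1, the β-secretase, gave -0.81 and 0.02. The list median was -0.02 with G9a shRNA1 and 0.14 with G9a shRNA2. Of 22 cytoplasmic linkers, 19 were kept and none was past 2-fold with both, beside 1.66% of all kept genes lower and 2.57% higher. The actin crosslinker ACTN4 read 1196, 2107 and 2583 (0.82 and 1.11), EPB41L1, a band 4.1 protein, gave -0.68 and -0.08, PALS2, a membrane scaffold, gave -0.49 and -0.39, and ANK1, an ankyrin, gave 0.43 and 0.48. The median was -0.05 and 0.06.

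ICAM1 and VCAM1 are induced by NF-κB and interferon signals, and subunits, inhibitors, receptors and targets of these pathways made up the last list. Of 16 listed, 14 had a probe set and all 14 were kept, and 10 of them were higher with both shRNAs, where 44.0% of all kept genes were. The chemokine gene CXCL8, an NF-κB target, was the 1 of the 14 more than 2-fold higher with both, beside 2.57% of all kept genes. It went from 52.8 on the Luc shRNA array to 138 on G9a shRNA1 and 107 on G9a shRNA2 (1.38 and 1.02). NFKB2, an NF-κB subunit, gave 0.80 and 1.01, TNFAIP3, a feedback inhibitor, gave 0.99 and 0.74, IRF1, an interferon-induced transcription factor, gave 0.66 and 0.75, and the receptor gene IL1R1 gave 0.67 and 0.61. The median over the list was 0.35 for G9a shRNA1 and 0.46 for G9a shRNA2.

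**Figure D4:**
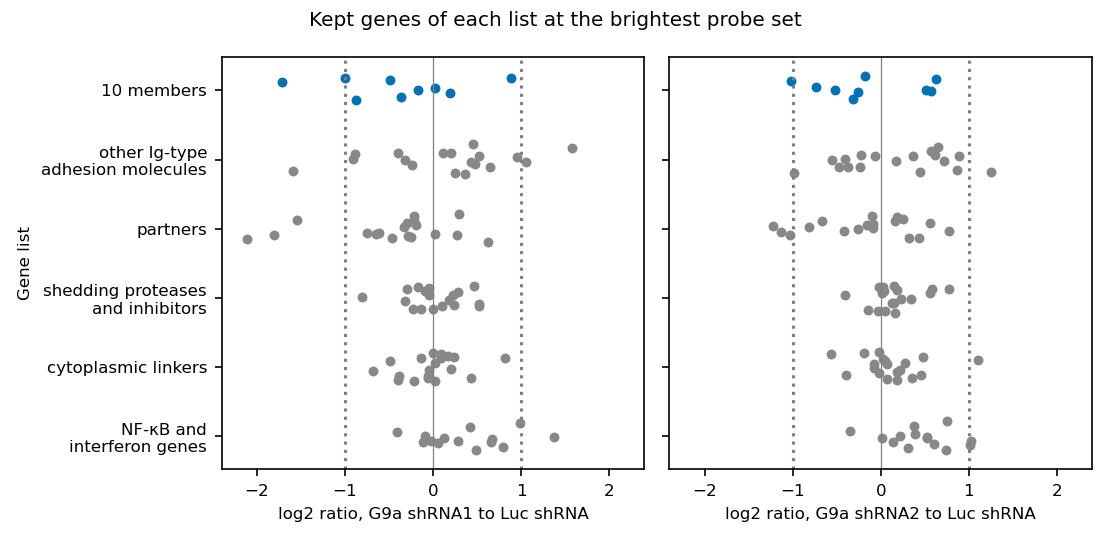
Log2 ratio to the Luc shRNA array of the kept genes of each list at the brightest probe set, with G9a shRNA1 (left) and G9a shRNA2 (right), 1 point per gene with vertical jitter and dotted lines at 2-fold. MCAM and NRP1 are the genes past the lower line with both shRNAs; 10 of the 14 NF-κB and interferon genes lie above 0 with both shRNAs.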

How the data were processed

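Total RNA of SKOV-3 cells was hybridised to 3 Affymetrix arrays, 1 per condition. The values are probe set intensities that the authors made with MAS5, per the labels, and deposited on a linear scale; version, settings and scaling target are not given in the sources used here. They were used as deposited (none was at or under 0) and no test was made, since each condition has 1 array, which limits the precision. Annotation by Entrez identifier gave 41097 probe sets with 1 symbol, 1801 with several and 11777 without; 42 identifiers had no match in RefSeq. The filter asked that 1 of 3 signals reach the median of all values, and each gene was read at its brightest probe set (mean of log2 signals). Named are all members, EHMT2, list genes past 2-fold with both shRNAs, up to 4 more per list furthest from 0 (marker lists are otherwise summed), and the 2 genes most like L1CAM and MCAM. ADAM10, PTPRC, CDH5 and MUC16 were named after their values were seen. The members and lists were chosen with earlier results of these data known. Alternatives were other filters, a floor at the median, median centring, trimmed-mean scaling, quantile normalization, other probe set choices and 1.5-fold and 3-fold thresholds. The code for the ratios, 2-fold calls and local spread was run on simulated data with large changes in bright probe sets. Changes near 2-fold or near the background were not simulated. Calculations used Python 3.11.15, numpy 2.4.6, pandas 2.3.3 and matplotlib 3.10.9.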

Additional observations from a re-analysis of the deposited data

Results flagged for a closer look

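At 2 kept CD47 probe sets the G9a shRNAs lay on opposite sides of the Luc shRNA array, a difference between the shRNAs that was not tested. The log2 ratios were -0.38 with G9a shRNA1 and 0.0089 with G9a shRNA2 at the one and 0.21 and -0.77 at the other, both dimmer than the 3 bright CD47 probe sets.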

How the results depend on the processing

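The count of 1 gene more than 2-fold lower with both shRNAs (MCAM) became 0 with a filter at the 75th percentile, which leaves MCAM out, with the mean of all probe sets of a gene, with probe sets whose suffix is neither _s_at nor _x_at, and at 3-fold. The count of 2 lower with at least 1 shRNA (MCAM and L1CAM) was 1 under those same 4 alternatives and after trimmed-mean scaling or quantile normalization, and 4 at 1.5-fold. The counts of 0 higher genes became 1 with the mean of all probe sets (ICAM1, with both shRNAs and with at least 1). With at least 1 shRNA the count was also 1 without a filter (VCAM1, whose signals were under the filter). It was 1 with the mean of kept probe sets, an alternative chosen after seeing the data, and 2 at 1.5-fold. The median with G9a shRNA2 was 0.26 with the mean of all probe sets and -0.24 with the mean of kept probe sets. Of 186 single-gene ratios listed under the alternatives, 166 differed from the main value by less than the local spread and 20 by more. Alternatives that change only the filter leave a ratio as it is. The same holds where another probe set choice gave the same probe set. These ratios could not move, so the 166 is not a measure of stability. In probe sets past the 75th percentile, quantile normalization shifted the ratios with G9a shRNA2 by a median of -0.14 and trimmed-mean scaling by -0.11. No paired analysis was possible because each condition has 1 array. None of the alternatives included the 4 probe sets annotated to both MCAM and MIR6756. Signal over background limits NCAM1, ICAM1 and VCAM1.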

Other observations

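The 14 probe sets of the adhesion molecules that stayed under the filter, 6 of NCAM1, 3 of CADM1 and 1 each of L1CAM, MCAM, ICAM1, VCAM1 and CD47, had signals from 0.246 to 11.9. The local spread of the log2 ratio between the G9a shRNA arrays was 0.96 to 2.12 at these signals, and no direction is read from their ratios.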
